A study of Arabidopsis thaliana with 9 samples.

Results

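The chloroplast genome of Arabidopsis was represented by 131 loci of the 21063 with tags on the sense strand, chosen as all loci whose identifier starts with ATCG. The rule reads the identifier alone. A further 99 loci lay in the mitochondrial genome and 20833 in the nucleus. Leaves of 4-week-old plants of ecotype Nossen (No-0) and of slh1, a mutant in the same background with a changed RRS1 immune receptor, were profiled by EXPRSS Tag-seq. Plants were grown in short days at 28 °C, sampled at 0 h, moved to 21 °C at the beginning of the light period, and sampled again after 6, 9 and 24 h. Each of the 2 genotypes had 1 library at each of the 4 time points, so that no group had a replicate and nothing in the labels separates plant-to-plant from technical variation. The 0 h and 24 h samples share a time of day, whereas at 6 and 9 h the time of day and the temperature cannot be told apart. Values are given as TPM, the tags of a locus per 1000000 sense tags of its library. Tags come from the 3′ part of transcripts, and these TPM are not divided by gene length. The libraries held between 200614 and 503398 sense tags, and 1 tag was worth between 1.99 and 4.98 TPM. Depth was lowest in slh1 at 0 h and 24 h.

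The chloroplast genome keeps a small set of genes of its former cyanobacterial ancestor. They encode core subunits of the photosystems, the cytochrome b6f complex, the ATP synthase and the NDH complex, the large subunit of Rubisco, part of the chloroplast ribosome, and its rRNAs and tRNAs. Many genes are transcribed together as operons. A bacterial-type RNA polymerase, whose core subunits are encoded by the chloroplast genes rpoA, rpoB, rpoC1 and rpoC2, transcribes most photosynthesis genes, and a nucleus-encoded phage-type polymerase transcribes among others the rpoB operon. Chloroplast RNAs do not carry the stable poly(A) tails of nuclear mRNAs. Their polyadenylation marks RNA for decay, and an oligo-dT primer can also anneal to internal runs of A. The tags of these loci therefore count RNA ends or stretches that oligo-dT could prime, and amount of RNA, polyadenylation and internal priming cannot be told apart. In whole leaves, fewer chloroplasts and less RNA per chloroplast cannot be told apart either.

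Runs of A near the loci are shown first because they are where such priming can occur. The runs of loci that fell after the shift (rpoA, clpP1, ycf1.2) and of loci that rose (psbM, rpl32) are given 5′ to 3′ on the strand of the gene, with the longest run of A in the locus and the 300 bases behind it in capitals. They are reference sequence of the chloroplast chromosome (Pltd) in RefSeq TAIR10.1, from ecotype Columbia rather than Nossen.
rpoA (14 A, coding sequence, Pltd:78080-78123, minus strand): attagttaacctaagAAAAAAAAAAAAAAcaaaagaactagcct
clpP1 (13 A, intron, Pltd:70389-70431, minus strand): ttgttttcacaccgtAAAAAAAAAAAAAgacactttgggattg
ycf1.2 (13 A, coding sequence, Pltd:125853-125895, minus strand): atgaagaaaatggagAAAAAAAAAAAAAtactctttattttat
psbM (13 A, behind the locus, Pltd:28658-28700, minus strand): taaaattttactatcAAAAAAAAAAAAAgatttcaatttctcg
rpl32 (8 A, behind the locus, Pltd:113652-113689, plus strand): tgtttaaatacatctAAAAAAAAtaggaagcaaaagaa

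A run of at least 12 A was found for 12 of 129 loci with coordinates (9.30%), over stretches that grow with the length of the locus. In the 300 bases behind the locus alone, 5 loci had one (3.88%), as did 2.11% of all windows of 300 bases on either strand of the chloroplast genome, and the difference was not tested. The loci with such a run had a median level of 1177 TPM, and the others 63.7 TPM. Across the 129 loci the length of the longest run and the mean TPM had a Spearman rho of 0.57, as a description over loci that share the same 8 libraries and base composition and, in the inverted repeat, their sequence. Locus length had a rho of 0.33 with mean TPM. Of the 10 most abundant rows 3 had a run of at least 12 A, beside 9.30% of all 129 loci. The 23S rRNA, the most abundant, had a longest run of 7 A. In the sequences above such runs stood at rpoA, clpP1 and ycf1.2, which fell, and behind psbM, which rose. Others, of 12 A, lay in introns of petD and trnK, which had no call against 0 h. The longest runs for rpl16 and atpE, which fell, were 11 and 9 A. The longest run at rpl32, which also rose, was 8 A. Their part in the results was not tested.

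Chloroplast loci took up a large and varying part of each library. In No-0 they held 22.6% of sense tags at 0 h (95% Wilson interval 22.5 to 22.8), 22.6% at 6 h (22.4 to 22.7), 16.8% at 9 h (16.7 to 17.0) and 13.4% at 24 h (13.3 to 13.5). In slh1 they held 20.6% (20.4 to 20.8), 14.9% (14.8 to 15), 16.4% (16.3 to 16.5) and 18.1% (18.0 to 18.3) at the same times. These intervals cover counting error only, since PCR copies of a molecule are not told apart. The 8 ribosomal RNA loci of the inverted repeat alone held 14.5, 17.2, 11.1 and 6.93% of sense tags in No-0 and 12.7, 8.30, 10.1 and 10.2% in slh1.

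Without the ribosomal RNA loci the picture changed. The remaining chloroplast loci held 9.52% (9.41 to 9.62), 6.52% (6.43 to 6.62), 6.44% (6.36 to 6.52) and 6.95% (6.87 to 7.02) of the remaining sense tags of No-0 at 0, 6, 9 and 24 h. In slh1 they held 8.97% (8.84 to 9.10), 7.16% (7.07 to 7.24), 7.0% (6.92 to 7.09) and 8.82% (8.70 to 8.95). Every library at 6 and 9 h was then below both 0 h libraries. The high value of No-0 at 6 h was that of its ribosomal RNA, and slh1 at 24 h was near its own 0 h value while No-0 at 24 h was below it. With 1 library per group the shares have no test, and the differences between them were not tested.

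**Figure D1:**
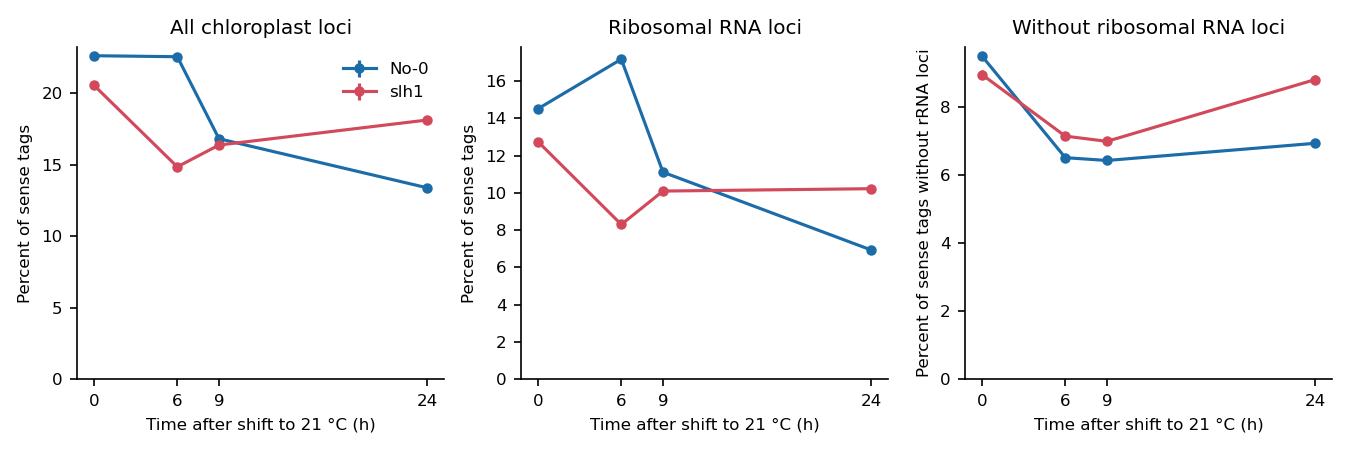
Share of chloroplast loci among sense tags (percent, y) against time after the shift (h, x), 1 point per library with its 95% Wilson interval, for all 131 loci, for the ribosomal RNA loci, and without them in both parts of the ratio. With ribosomal RNA, No-0 went from 22.6% at 0 h to 13.4% at 24 h. Without it, all libraries lay between 6.44 and 9.52%.

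The classes of loci differed widely in level and course. Ribosomal RNA made up between 51.7 and 76.1% of the chloroplast tags of a library, and the 26 ribosomal protein loci were the next largest class in each. The summed level of the 4 RNA polymerase loci in No-0 was 1897, 270.4, 291 and 479 TPM at 0, 6, 9 and 24 h. In slh1 it was 2173, 693, 563 and 195 TPM. Every library at 21 °C was well below both 0 h libraries. The 20 photosystem loci summed to 9332, 8187, 6358 and 7155 TPM in No-0, and in slh1 to 10443, 6602, 5592 and 10370.3 TPM. Here slh1 at 24 h was back at its 0 h level.

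Taken apart, the photosystems did not move together. Photosystem I loci summed to 4966 and 5526 TPM at 0 h (No-0 and slh1) and to between 1905 and 2698 TPM in the 6 later libraries. Photosystem II loci were at 4366, 5489, 4452 and 4896 TPM in No-0, and at 4917, 4411, 3635 and 7681 TPM in slh1, so that later libraries lay on both sides of the 0 h values. The ribosomal protein loci summed to 27791, 21603, 23681 and 30391 TPM in No-0, and in slh1 to 25347, 23124, 25167 and 38441 TPM, with the highest value of each genotype at 24 h. Loci of the large ribosomal subunit were at 14247 and 11971 TPM at 0 h (No-0 and slh1) and at 20963 and 25828 TPM at 24 h, of which the single gene rpl32 held 18259.9 and 22012 TPM. The 35 tRNA loci summed to 15423, 9089, 13012 and 12854 TPM in No-0, and in slh1 to 11703, 16661, 15573 and 13588 TPM.

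Scaling to the sense tags without ribosomal RNA loci left these courses in place. The log2 ratio of the RNA polymerase class to 0 h was then -2.76, -2.76 and -2.11 in No-0 and -1.72, -1.99 and -3.52 in slh1 at 6, 9 and 24 h. That of the photosystem class was -0.14, -0.61 and -0.51 in No-0 and -0.73, -0.94 and -0.05 in slh1. That of the ribosomal protein class was -0.32, -0.29 and 0.01 in No-0 and -0.20, -0.05 and 0.56 in slh1. As shares of the chloroplast tags without ribosomal RNA, ribosomal protein loci were at 34.2% and 32.4% at 0 h and at 47.0% and 48.5% at 24 h. RNA polymerase loci were at 2.33% and 2.78% at 0 h and at 0.741% and 0.246% at 24 h. The ribosomal protein sums depend on rpl32, which rose by 1.72 (No-0) and 2.13 (slh1) on the log2 scale from 0 h to 24 h. Most ribosomal protein loci tested were called lower at 24 h.

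**Figure D2:**
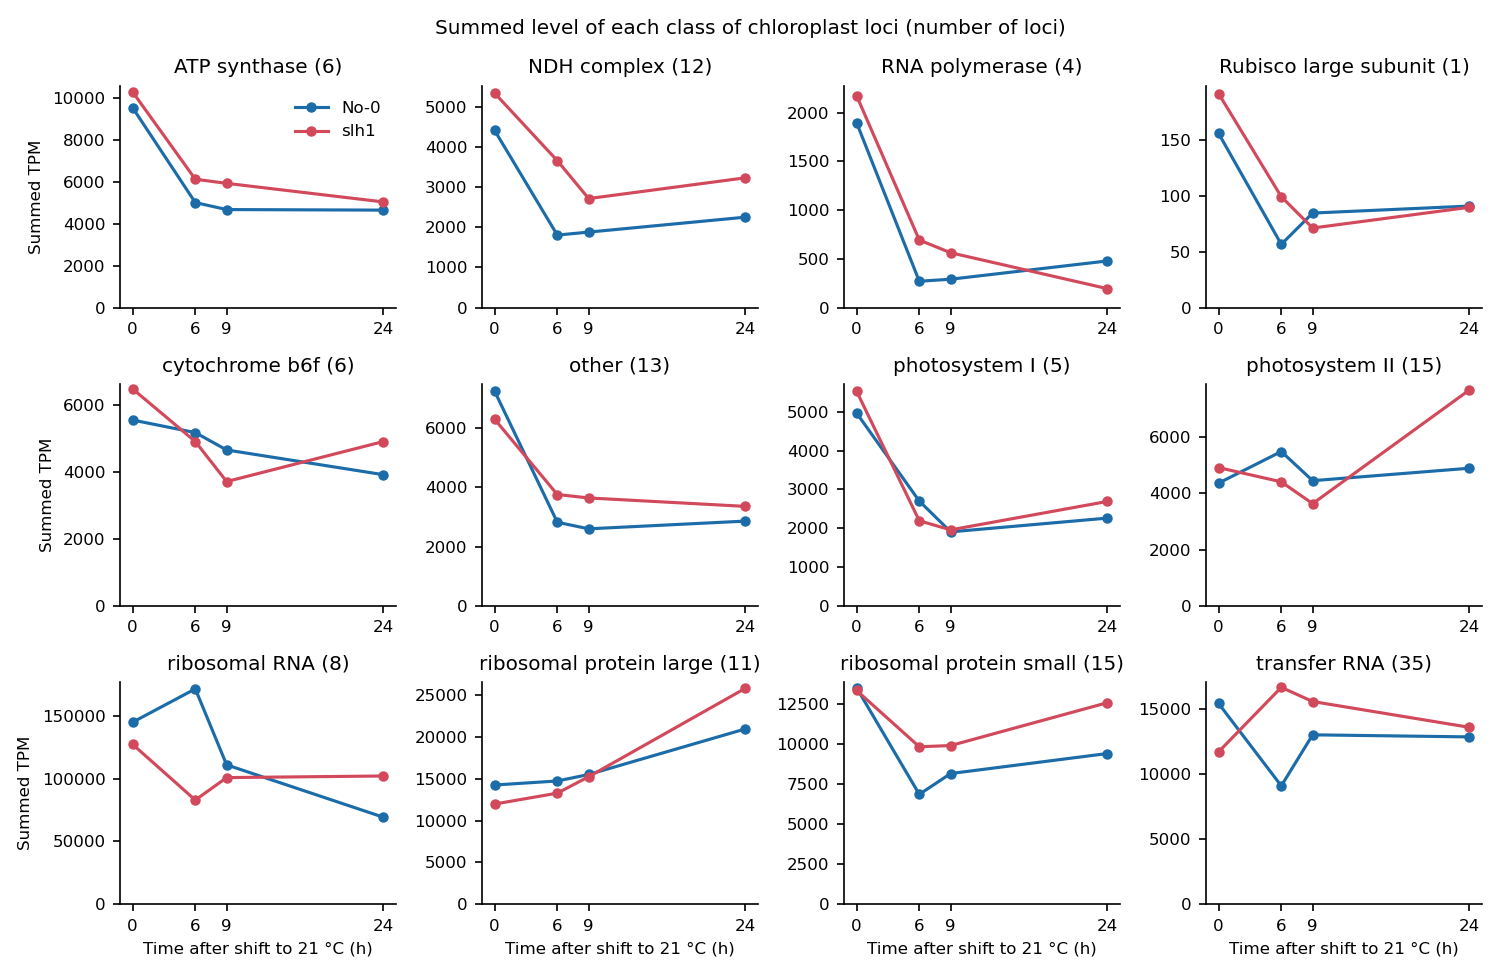
Summed TPM of each class of chloroplast loci (y, from 0, with the number of loci in the title) against time after the shift (h, x), 1 point per library. RNA polymerase loci were at 1897 and 2173 TPM at 0 h and between 195 and 693 TPM later. Large-subunit ribosomal protein loci reached 20963 and 25828 TPM at 24 h, most of it from rpl32.

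Time points were tested against 0 h with the 2 genotypes as the 2 values of each time, in edgeR's quasi-likelihood test with genotype as a block. The error of this test is the variation of the time difference between genotypes, which includes any true genotype effect. Of the 131 loci, 110 passed the filter on low counts. The other 21, among them 15 tRNA loci, had at most 12 tags in any library. At 6 h, 32 were called at an adjusted p below 0.05 (4 higher, 28 lower), against 4.18% of all 7832 genes tested (2.63% higher, 1.54% lower). At 9 h, 38 were called (4 higher, 34 lower), against 7.34% of genes (4.34% higher, 3.0% lower). At 24 h, 48 were called (15 higher, 33 lower), against 18.7% of genes (10.4% higher, 8.22% lower).

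A locus could pass the filter through its high group, so these counts do not stand for all members. Among the 71 loci with a mean of at least 20 tags over all libraries, 25 fell and 3 rose at 6 h, against 5.20% and 4.87% of the 2116 genes at that level (10.1% either way). At 9 h, 29 fell and 3 rose, against 10.6% and 9.97% (20.6% either way). At 24 h, 22 fell and 11 rose, against 20.4% and 20.8%, so that the 46.5% of members called at 24 h stood near the 41.2% of all such genes. Over all 131 loci with no filter, the median log2 change was -0.40, -0.47 and -0.48 at 6, 9 and 24 h, beside 0.15, 0.14 and 0.11 over all genes. With DESeq2 in place of edgeR, 22, 34 and 32 loci were called, against 1.84, 4.03 and 10.5% of all genes.

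The calls recurred. In all, 28 loci were called at 6, 9 and 24 h, of which 25 were lower and 3 higher each time. The 3 comparisons share their 0 h libraries, which favours such recurrence for any gene. The share of all genes called each time was not counted. The 3 higher loci were rpl32 and both copies of the 5S rRNA. Inverted repeat copies, most with the same split tags, count as separate loci in these numbers. With copies summed, 27, 34 and 43 of 97 loci were called at 6, 9 and 24 h, against 333, 574 and 1472 of 7819 genes. Of the 15 loci called at 24 h alone, 11 were higher, and here too the share of all genes was not counted.

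**Figure D3:**
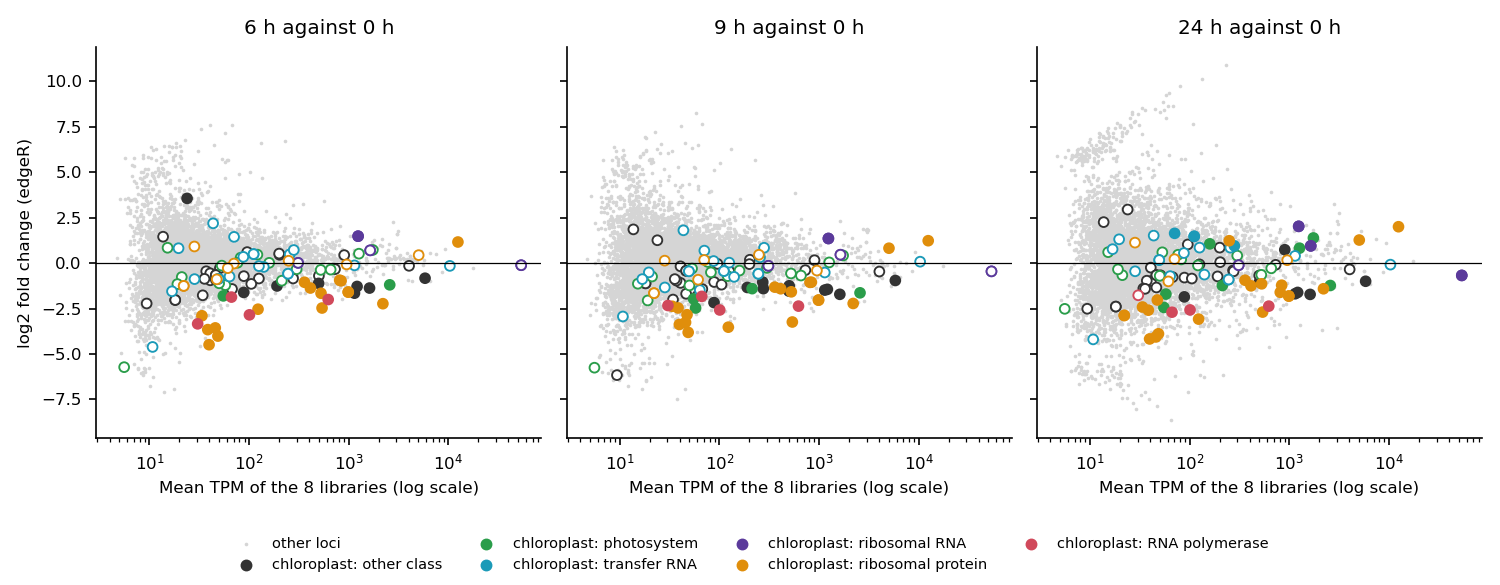
Fitted log2 fold change against 0 h (y) by mean TPM of the 8 libraries (x, log axis) at 6, 9 and 24 h. Coloured circles are chloroplast loci by class (filled: adjusted p below 0.05), grey dots all other genes tested. RNA polymerase and many ribosomal protein loci lie below -1, and rpl32 lies furthest right among the ribosomal protein loci, at 1.16, 1.23 and 2.00.

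All 4 subunit genes of the chloroplast RNA polymerase passed the test at 6 and 9 h, and all were lower. rpoA (ATCG00740), which encodes the alpha subunit, was at 1331, 200.4, 195 and 385 TPM in No-0 at 0, 6, 9 and 24 h and at 1725, 590.2, 436 and 114 TPM in slh1. Both 0 h libraries were far above all others. Its log2 change was -2.0 ± 0.31 (SE) at 6 h, -2.37 ± 0.31 at 9 h and -2.37 ± 0.32 at 24 h (edgeR adjusted p = 5.47e-07, 9.96e-10 and 3.62e-10), and the 6 h call was lost with DESeq2. rpoC2 (ATCG00170), for the beta″ subunit, was at 302, 35.0, 35.7 and 50.7 TPM in No-0 and at 252, 40.6, 59.7 and 31.6 TPM in slh1. Its log2 change lay between -2.57 and -2.85, with a largest edgeR adjusted p of 3.28e-06.

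The other subunit genes of the rpoB operon gave the same direction on fewer tags. rpoC1 (ATCG00180, beta′ subunit) was at 183 and 132 TPM at 0 h and between 14.6 and 55.0 TPM later. Its log2 change was -1.87, -1.83 and -2.70 (edgeR adjusted p = 0.015, 0.00864 and 6.49e-05). rpoB (ATCG00190, beta subunit) was at 79.9 and 64.8 TPM at 0 h and between 3.18 and 34.0 TPM later. It passed the test at 6 h (log2 change -3.34 ± 0.86 SE, edgeR adjusted p = 0.00763) and 9 h (-2.33 ± 0.77, 0.0423), and had a value of -1.77 ± 0.75 at 24 h (0.0868). The 9 h call of rpoB was lost with DESeq2, with limma-voom, without the filter and without TMM, and that of rpoC1 at 6 h with DESeq2 and at 6 and 9 h without the filter.

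The rpl23-rpoA operon, which joins rpoA to genes of both ribosomal subunits, was low after the shift. Its 11 loci summed to 11608, 2058, 2055 and 2880.1 TPM in No-0 and to 9999, 3798, 3349.6 and 3452 TPM in slh1. rpl16 (ATCG00790), a large-subunit protein and the most abundant gene of the operon, was at 5471, 716, 817 and 1720.3 TPM in No-0 and at 4212, 1429, 1426 and 1819 TPM in slh1. It fell by 2.23, 2.22 and 1.41 on the log2 scale (edgeR adjusted p = 3.45e-12, 2.87e-12 and 1.77e-06). The later libraries of rpl16 were all under both 0 h libraries.

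Its neighbours fell further. rps3 (ATCG00800), a small-subunit protein, was at 1548, 233, 110.0 and 226 TPM in No-0 and at 1453, 307, 227 and 214 TPM in slh1, with a log2 change of -2.47, -3.24 and -2.69 (SE 0.30, 0.31 and 0.31). rpl22 (ATCG00810) was at 426 and 287 TPM at 0 h and between 22 and 68.5 TPM later, with a log2 change of -2.54, -3.52 and -3.08. Both passed the test at each time, with a largest edgeR adjusted p of 2.4e-06. rpl14 (ATCG00780) passed at each time as well, with log2 changes of -3.66, -2.47 and -2.59, the 9 h call not without the filter. rpl36 (ATCG00760), which follows in the operon, was at 113 and 59.8 TPM at 0 h and at 7.62 to 29.2 TPM later, on at most 41 tags. Its log2 changes were -2.90, -2.38 and -2.42, all called by edgeR, and DESeq2 kept none of these calls.

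The genes at the front of the operon differed among themselves. The first, rpl23, lies in both copies of the inverted repeat, and the pair summed to 110.3, 35.0, 27.5 and 5.96 TPM in No-0 and to 79.8, 40.6, 34.8 and 19.5 TPM in slh1, on 3 to 40 tags. The operon copy, rpl23.1 (ATCG00840), had log2 values of -1.25 and -1.65 at 6 and 9 h that did not pass, and fell at 24 h (-2.88 ± 1.02 SE, edgeR adjusted p = 0.0327), a call lost with DESeq2 and without the filter. rpl2.1 (ATCG00830), the next gene, had a log2 change of -1.37, -1.41 and -1.25. rps19 (ATCG00820) was at 1440.3, 525, 602 and 197 TPM in No-0 and at 1206, 953, 772 and 793 TPM in slh1, with a log2 change of -0.94, -1.06 and -1.61 (edgeR adjusted p = 0.0326, 0.0064 and 6.53e-06). Its 6 h call was lost under 5 of 10 alternative settings, and its calls at 9 and 24 h with DESeq2. The difference between genes of the operon was not tested.

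**Figure D4:**
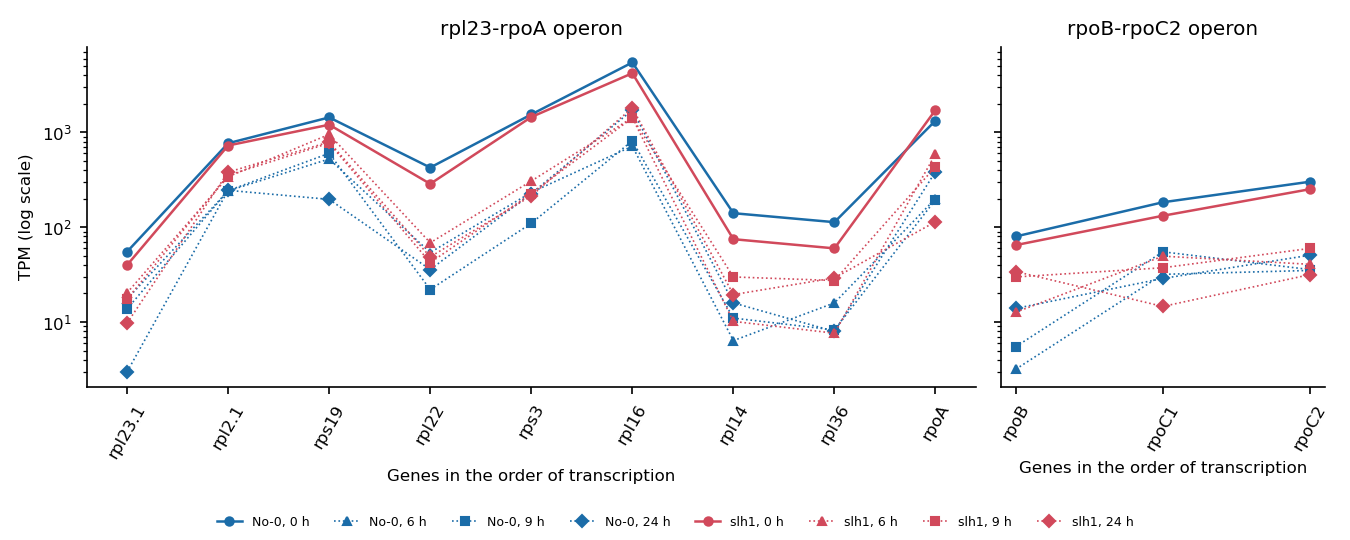
TPM (y, log axis) of genes of the rpl23-rpoA and rpoB-rpoC2 operons in the order of transcription (x), 1 symbol per library, with the 0 h libraries on solid lines. Both 0 h libraries lie above all 6 later libraries at rpl16 (5471 and 4212 against 716 to 1819 TPM) and at rpoA (1331 and 1725 against 114 to 590.2 TPM).

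Other ribosomal protein genes outside this operon also fell. rps7 is present in both copies of the inverted repeat (ATCG00900 and ATCG01240), whose tags the deposited counts split equally. The pair summed to 4273, 1098, 938 and 1189.9 TPM in No-0 and to 4257, 1724, 1225 and 1114 TPM in slh1. Each copy had a log2 change of -1.59, -2.03 and -1.81 (edgeR adjusted p = 4.68e-06, 9.96e-10 and 1.34e-08). rps12C (ATCG00905), a part of the trans-spliced rps12 gene next to rps7, was at 141 and 127 TPM at 0 h and between 3.18 and 13.7 TPM later, with log2 changes of -4.49, -3.38 and -4.17. These rest on few tags: together with its repeat copy it had 107 and 54 at 0 h, and between 2 and 12 in each later library. rps4 (ATCG00380), a small-subunit gene transcribed on its own, was at 629 and 548 TPM at 0 h and between 162 and 353 TPM later, with log2 changes of -1.05, -1.32 and -0.94, of which those at 6 and 24 h were lost with DESeq2 and without the filter, and that at 6 h also without the 9 h libraries. rps2 (ATCG00160), by contrast, stayed between 696 and 1183 TPM with no call. rps14 (ATCG00330), which is transcribed with the photosystem I genes psaA and psaB, had log2 changes of -1.66, -1.58 and -1.14.

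Over the class, with inverted repeat copies counted apart, 9, 10 and 10 of 14 small-subunit loci tested fell at 6, 9 and 24 h. So did 6, 6 and 8 of 11 large-subunit loci. At 24 h 1 small-subunit and 2 large-subunit loci rose. The risers were separate genes. rpl32 (ATCG01020), of the large subunit, was the most abundant protein-coding locus by its mean over the 8 libraries, though not at 0 h, and rose at each time. It was at 5552, 12904, 13487 and 18259.9 TPM in No-0 and at 5039.5, 10225, 12189.7 and 22012 TPM in slh1, highest at 24 h in both. Its log2 change was 1.16, 1.23 and 2.00 (SE 0.21 each, edgeR adjusted p = 2.03e-05, 2.12e-06 and 5.18e-15).

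rps18 (ATCG00650), of the small subunit, was at 2732, 3146, 5147 and 5939.6 TPM in No-0 and at 3464, 5290.0, 6064 and 8472 TPM in slh1. Its log2 change was 0.44 at 6 h (edgeR adjusted p = 0.334), 0.82 at 9 h (0.00704) and 1.27 at 24 h (1.85e-06), and the 9 h call was lost with the filter of 20 tags. rpl33 (ATCG00640), its neighbour upstream, was at 171 and 164 TPM at 0 h and at 256 and 549.6 TPM at 24 h, a log2 change of 1.23 ± 0.34 (SE, edgeR adjusted p = 0.00423). The same class thus held the deepest falls and the largest rise by number of tags.

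Photosystem genes were split in a similar way. In photosystem I, psaB (ATCG00340), a reaction centre protein, was at 4537, 2233, 1562 and 1829.6 TPM in No-0 and at 4985, 1820.0, 1603 and 2052 TPM in slh1. It fell by 1.19, 1.63 and 1.23 on the log2 scale (edgeR adjusted p = 0.000189, 3.92e-08 and 1.83e-05), and was the only locus of the 5 tested to pass. psaA (ATCG00350), the other large reaction centre protein and upstream in the same operon, had 11 tags or fewer in every library. In photosystem II, 1, 3 and 3 of 14 loci tested fell at 6, 9 and 24 h, and 0, 0 and 3 rose. The fallers included psbC (ATCG00280), an inner antenna protein, at 302 and 444 TPM at 0 h and between 132 and 200.4 TPM later, with a log2 change of -1.40 at 9 h and -1.23 at 24 h (edgeR adjusted p = 0.00245 and 0.00525). psbH (ATCG00710), a small subunit, had log2 changes of -1.80, -1.97 and -2.44, of which the first was lost under 4 of the 9 alternative settings that tested it and the second without the filter. psbD (ATCG00270), a reaction centre protein whose gene overlaps psbC, was at 104 and 140 TPM at 0 h and between 12.4 and 54.1 TPM later, and passed at 9 h (-2.47 ± 0.59 SE, edgeR adjusted p = 0.00156) and 24 h (-1.70 ± 0.57, 0.0218), the latter lost with DESeq2 and without the filter.

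The photosystem II risers encode small subunits. psbM (ATCG00220) was at 1114, 2268, 1639 and 2399.7 TPM in No-0 and at 1037, 1251, 1342 and 2903 TPM in slh1, a log2 change of 1.39 ± 0.26 (SE) at 24 h (edgeR adjusted p = 5.87e-06). psbI (ATCG00080) was at 819 and 1156 TPM at 0 h and at 997 and 2427 TPM at 24 h, so that the libraries of the 2 times overlapped (log2 change 0.82 ± 0.27, edgeR adjusted p = 0.0182). psbK (ATCG00070) was at 171 and 84.7 TPM at 0 h and at 149 and 401 TPM at 24 h (1.06 ± 0.39, 0.0406), lower in No-0 and higher in slh1. The calls of psbI and psbK were lost with DESeq2, limma-voom, the filter of 20 tags and scaling to nuclear loci. psbA (ATCG00020), the D1 reaction centre protein, was at 559, 485, 457 and 271 TPM in No-0 and at 810.0, 530.1, 474 and 599.8 TPM in slh1, and did not pass the test at any time (smallest edgeR adjusted p = 0.115).

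In the ATP synthase, atpB and atpE, which share an operon and encode subunits of the catalytic part, fell at all times. atpE (ATCG00470) was at 8769, 4378, 4262 and 4254 TPM in No-0 and at 9386, 5705, 5450.1 and 4431 TPM in slh1. Its log2 change was -0.83, -0.96 and -1.0 (SE 0.22 each, edgeR adjusted p = 0.00875, 0.000895 and 0.00017). atpB (ATCG00480) was at 215 and 164 TPM at 0 h and between 28.6 and 104 TPM later, with log2 changes of -1.61, -2.17 and -1.86, the first lost with DESeq2 and without the filter. In the other ATP synthase operon the genes differed. atpF (ATCG00130), a stalk subunit, was at 273 and 364 TPM at 0 h and between 107 and 214 TPM later and passed at 6 and 9 h (log2 change -1.26 and -1.34, edgeR adjusted p = 0.0193 and 0.00611). Both calls of atpF were lost without the filter, and that at 6 h also with DESeq2. atpA (ATCG00120), of the catalytic part, had log2 values of 0.46, 0.18 and 0.05 and did not pass.

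In the NDH complex, ndhC (ATCG00440) was at 2149, 489.9, 707 and 751 TPM in No-0 and at 2393, 1518, 1060.4 and 632 TPM in slh1. It fell by 1.28, 1.44 and 1.61 on the log2 scale (edgeR adjusted p = 0.000419, 1.99e-05 and 4.89e-07). ndhI (ATCG01090) was at 679, 218, 194 and 384 TPM in No-0 and at 937, 579, 409 and 591 TPM in slh1, and passed at 6 and 9 h (log2 change -1.12 and -1.54, edgeR adjusted p = 0.00916 and 4.57e-05), the first lost without the filter. ndhA (ATCG01100), its neighbour, passed at 9 h (-1.41, 0.00126), and ndhD (ATCG01050), between 505 and 1142 TPM, at no time. The single NDH locus called higher, ndhG at 6 h (ATCG01080), was at 2.76 and 4.98 TPM at 0 h and at 41.4 and 49.5 TPM at 6 h. Each 0 h value is 1 tag, and the call was lost with DESeq2, limma-voom, nuclear scaling and no filter. In the cytochrome b6f complex, petD (ATCG00730) was the most abundant gene and between 3072 and 5369 TPM in every library, with no call at any time. petB (ATCG00720), which shares its operon, was at 835 and 768 TPM at 0 h and between 343.7 and 496 TPM later, with log2 changes of -1.25 at 9 h and -1.03 at 24 h (edgeR adjusted p = 0.00118 and 0.00537). rbcL (ATCG00490), for the large subunit of Rubisco, was at 156, 56.7, 84.8 and 91.0 TPM in No-0 and at 192, 99.4, 71.4 and 90.0 TPM in slh1, with log2 changes of -1.14, -1.19 and -0.85 that did not pass (smallest edgeR adjusted p = 0.0636).

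Among genes of other functions, clpP1 (ATCG00670), a subunit of the Clp protease, was at 3371, 830.4, 839 and 916 TPM in No-0 and at 3046, 1744, 1232 and 958 TPM in slh1. Its log2 change was -1.37, -1.72 and -1.72 (edgeR adjusted p = 4.32e-05, 5.46e-08 and 1.48e-08). ycf1.2 (ATCG01130), a large open reading frame that encodes a protein of the import machinery, was at 2525, 542, 644 and 656 TPM in No-0 and at 2021, 933, 1098 and 712 TPM in slh1, with log2 changes of -1.65, -1.48 and -1.69. Both genes had every later library under both 0 h libraries. ccsA (ATCG01040), for cytochrome c assembly, had a log2 change of 0.74 at 24 h (edgeR adjusted p = 0.0426), which was lost under 7 of 10 alternative settings.

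The ribosomal RNAs, all in the inverted repeat, did not follow each other. The pair of 23S rRNA loci (ATCG00950 and ATCG01180) summed to 141634, 163681, 104621 and 62672 TPM in No-0 and to 123209, 77474, 94648 and 91740.0 TPM in slh1. It was higher at 6 h than at 0 h in No-0 and lower in slh1. Its log2 change at 24 h was -0.68 ± 0.19 (SE, edgeR adjusted p = 0.00586), and the call was lost with DESeq2 and with the filter of 20 tags. The 5S pair (ATCG00970 and ATCG01160) summed to 964, 2939.7, 2349 and 2847 TPM in No-0 and to 967, 2273, 2773 and 4751 TPM in slh1. Every later library was more than 2-fold above both 0 h libraries, and the log2 change of each copy was 1.48, 1.35 and 2.02 (SE 0.27 each, edgeR adjusted p = 2.88e-05, 7.76e-05 and 3.97e-10). The 4.5S pair summed to 1929.6 and 2582 TPM at 0 h and to 3308 and 5019 TPM at 24 h, a log2 change of 0.95 ± 0.26 at 24 h (0.00321). The 16S pair, between 396 and 894 TPM, had no call.

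Of the 35 tRNA loci with sense rows, 20 were tested, and most of their tags were those of trnK. trnK (ATCG00030) was at 11849, 5499, 9822 and 9805 TPM in No-0 and at 8913, 14254, 13445 and 9118 TPM in slh1. It holds an intron with the coding sequence of matK, an intron maturase, on the same strand, so that reads of the 2 overlapping loci were shared by the authors' counting. No tRNA locus was called at 6 or 9 h. At 24 h 4 rose, which were trnP, trnT.2 and both copies of a trnV gene (log2 change of 0.95, 1.64 and 1.47), and all 4 calls were lost with DESeq2.

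The question of the mutant was whether slh1 and No-0 differ in these transcripts. No chloroplast locus passed the test of slh1 against No-0 at 28 °C (edgeR, 0.0383% of all genes called) or at 21 °C over 6, 9 and 24 h (0.102%). At an unadjusted p under 0.05 there were 4 of 110 loci at 28 °C, against 4.44% of all genes, and 19 at 21 °C, against 5.16%. DESeq2 and limma-voom called 0 loci in each as well. The 28 °C test sets 1 library against 1. At 21 °C the smallest p was that of rps19, with a log2 difference of 0.87 ± 0.24 (SE, slh1 minus No-0, edgeR adjusted p = 0.251). Without the 24 h libraries, 21 loci were called at 21 °C (7 higher, 14 lower in slh1), against 1.31% of the 6933 genes then tested (0.245% higher, 1.07% lower). Among them were lower 23S rRNA (-0.84 ± 0.08 SE) and psbM (-0.80 ± 0.16) and higher rpoA (1.13 ± 0.21), ndhC (0.87 ± 0.17), trnK (0.68 ± 0.11) and rpl16 (0.67 ± 0.15). These values rest on the 6 and 9 h pairs alone, and the SE do not measure the spread between the pairs. For the 23S rRNA the log2 ratio of slh1 to No-0 was -1.08 at 6 h and -0.14 at 9 h.

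The ratio of the genotypes changed between time points. The log2 ratio of slh1 to No-0 for rpoA was 0.37 (95% Clopper-Pearson interval 0.17 to 0.58) at 0 h, 1.56 (1.15 to 1.99) at 6 h, 1.16 (0.75 to 1.58) at 9 h and -1.72 (-2.40 to -1.11) at 24 h. For rps19 it was -0.26 (-0.48 to -0.03), 0.86 (0.59 to 1.14), 0.36 (0.10 to 0.61) and 2.01 (1.64 to 2.39). For the 23S rRNA it was -0.20, -1.08, -0.14 and 0.55, each with an interval narrower than 0.1. Both rpoA and the 23S rRNA thus lay on 1 side of No-0 at 6 h and on the other at 24 h. The genotype difference at 21 °C minus that at 28 °C gave no call (0.00% of genes, edgeR, 9 loci at an unadjusted p under 0.05, against 4.53% of genes, and 0 with DESeq2 and limma-voom), and without the 24 h libraries 4, against 0.216%. In a second test, added like this one after values were seen, of a genotype difference at 24 h that departs from that at the other times, 2 of 110 loci passed, as against 0.281% of all genes, and 30 had an unadjusted p under 0.05, against 6.89%. They were rpoA (-2.61 ± 0.48 SE, edgeR adjusted p = 4.72e-05) and rps19 (1.80 ± 0.42, 0.00816). DESeq2 called 0 loci in this test, with adjusted p of 0.122 and 0.307.

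**Figure D5:**
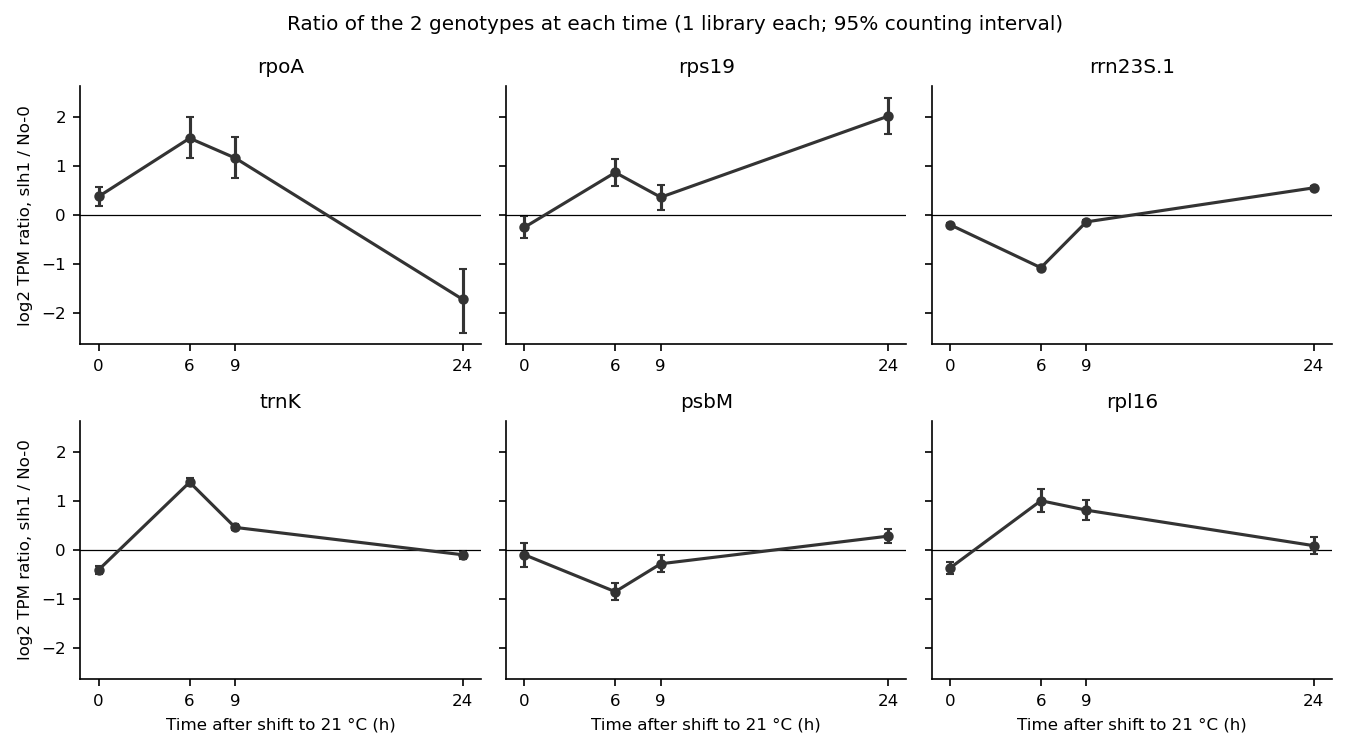
log2 ratio of TPM, slh1 over No-0 (y), at each time after the shift (h, x) for 6 chloroplast loci, with 1 library per genotype and 95% counting intervals. rpoA goes from 1.56 at 6 h to -1.72 at 24 h, and rps19 reaches 2.01 at 24 h.

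The shift within each genotype, with 6, 9 and 24 h together against 0 h, gave no call by edgeR at an adjusted p of 0.05 (0.00% of all genes), with 41 of 110 loci at an unadjusted p under 0.05 in No-0 and 29 in slh1, against 8.08 and 8.71% of all genes. DESeq2 called 3 loci in No-0 (0.0638% of genes) and 0 in slh1, and limma-voom 0 in both. Without the 24 h libraries 28 loci were called in No-0 (3 higher, 25 lower), against 2.28% of genes (1.28% higher, 0.995% lower), and 12 in slh1, against 0.793%. Without the filter on low counts 13 loci were called in No-0 (0.307% of genes) and 2 in slh1 (0.154%). As single libraries at 24 h and 0 h, 21 chloroplast loci were at least 4-fold lower and 0 higher in No-0 on the log2(TPM + 5) scale, against 6.19% of all loci in either direction. In slh1, 11 were lower and 8 higher, against 13.6%. Between genotypes at a single time, 4, 3, 2 and 0 chloroplast loci were at least 4-fold apart at 0, 6, 9 and 24 h, against 4.12, 3.52, 2.32 and 4.22% of all loci.

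Nuclear genes for the transcription and turnover of chloroplast RNA were measured in the same libraries. Of 19 such genes 17 were tested, and 1, 3 and 6 passed at 6, 9 and 24 h (0, 2 and 1 of them higher), against 4.18, 7.34 and 18.7% of all genes. CSP41B, an endonuclease-like RNA-binding protein of the chloroplast, was at 1017, 414, 426 and 308 TPM in No-0 and at 1137, 383, 344 and 195 TPM in slh1, a log2 change of -1.41, -1.54 and -2.05 (edgeR adjusted p = 0.000300, 2.67e-05 and 9.22e-09). The RNA-binding proteins CP29A and CP29B rose at 9 h by 1.38 and 1.14 on the log2 scale (edgeR adjusted p = 0.000494 and 0.00159), with values of -0.71 and -0.64 at 24 h that did not pass. SIG5, a sigma factor of the bacterial-type polymerase, was at 11, 41.4, 8.25 and 119 TPM in No-0 and at 4.98, 50.8, 2.49 and 146 TPM in slh1, which is 1 to 60 tags, and rose at 24 h (log2 change 3.94 ± 0.73 SE, edgeR adjusted p = 6.53e-06). SIG2, another sigma factor, fell at 24 h by 2.44 (edgeR adjusted p = 0.0026), on 33 and 20 tags at 0 h (No-0 and slh1) and 10 and 2 at 24 h. The sigma factors SIG1, SIG3, SIG4 and SIG6 had no call against 0 h.

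The leaf label was checked by markers. RBCS1A, the main Rubisco small subunit gene of leaf mesophyll, had between 3421 and 10912 tags per library, and the root gene EXPA7 and the seed gene CRA1 had 0 in each, below a floor of 3 tags. The root gene PYK10 had 0 tags at 0 h in both genotypes, between 16 and 38 in 5 later libraries and 0.5 in slh1 at 24 h. Mitochondrial loci summed to between 868 and 1211 TPM.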

How the data were processed

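Per the labels and the methods of the study, EXPRSS libraries were primed with oligo-dT from total RNA. Reads were filtered by quality and, per the submitters' processing notes, assigned with Bowtie 0.12.8 to TAIR10, although BWA is named for paired reads, so that the aligner behind these counts is not certain. The authors deposited 1 table of expected counts of tags per locus and library, in which reads on several genes are split equally. Prefixed rows were read as antisense and not counted here. A further sample of reads without a barcode was not used.

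Counts were rounded and tested with edgeR 4.0.16 in R 4.3.3 (TMM, filterByExpr by genotype and temperature, quasi-likelihood F test, Benjamini-Hochberg over all 7832 genes tested, threshold 0.05). Each SE is the fold change over the square root of its F value. Genotype tests had the time point as a block (2 residual degrees of freedom), time tests the genotype (3), and shift tests 4 group means (4). Fits that left out a time point had fewer. The scripts were tested on simulated data. DESeq2 1.42.0, limma-voom (limma 3.58.1), other scalings and filters, and fits without a time point were the alternatives. Shares carry 95% Wilson intervals, and ratios of 2 libraries Clopper-Pearson intervals.

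The files give identifiers without gene names. Names, classes and operons came from a table written from TAIR nomenclature. Its order matched that of the genes in the TAIR10.1 annotation for all 127 neighbours compared. Of 18 inverted repeat pairs, 16 had equal tags in every library (tolerance 1e-06). Notes in that annotation mention 7 loci. The note on ATCG00430, here ndhK, reads photosystem II reaction center protein G, and that on ndhJ gives no gene name. Coordinates and sequences are those of TAIR10.1. Named were the up to 4 most abundant loci of a class, up to 10 called loci per direction and comparison (or the 3 with the smallest p), the 3 largest changes per direction between 24 h and 0 h, and list genes with at least 20 tags on average. psaA, psbC, psbH and the sigma factors were named after their values were seen. Some items that the rule would name are not reported here. The loci, lists and classes were chosen with earlier results of these data known.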

Additional observations from a re-analysis of the deposited data

Results flagged for a closer look

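In a test added after values were seen, the difference between slh1 and No-0 at 24 h minus that at 0, 6 and 9 h was called by edgeR for rpoA (log2 -2.61, adjusted p = 4.72e-05) and for rps19 (1.80, 0.00816), which lie in the same operon. DESeq2 called neither (adjusted p = 0.122 and 0.307). At 24 h rpoA had 194 tags in No-0 (385 TPM) and 24 in slh1 (114 TPM), and rps19 had 99 (197 TPM) and 163 (793 TPM). Each 24 h value rests on 1 library per genotype, so that the error of the test comes from the other times, and slh1 at 24 h is among the shallowest.

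Every later library moved down from 0 h in No-0 and up in slh1, or the reverse, for the tRNA loci summed, where the mean log2 ratio to 0 h was 0.80 higher in slh1 than in No-0. The same held for trnK (0.98 higher), for matK inside its intron (1.41 higher) and for psbL, a small photosystem II subunit (2.55 higher, on a mean of 26.8 tags). For psbL, slh1 at 0 h and No-0 at 6 h had only 6 tags each. Its log2 ratio of slh1 to No-0 at 9 h was -0.09 (95% Clopper-Pearson interval -0.89 to 0.71). The test of the genotype difference at 21 °C minus that at 28 °C gave no call for these loci, with values of 0.89 ± 0.31 (SE, edgeR adjusted p = 0.985) for trnK, 1.36 ± 0.67 (0.985) for matK and 2.55 ± 0.93 (0.985) for psbL. The summed tRNA loci were not tested. Most of their tags were those of trnK, which shares reads with matK, so the tRNA sum, trnK and matK are not separate observations. No sum of the tRNA loci without trnK was made, so that the opposite course was not shown for the tRNA loci apart from trnK. At 6 h the log2 ratio of slh1 to No-0 was 1.37 for trnK. It was -0.62 for trnS.1, -1.20 for trnA.1, 0.02 for trnP and 0.13 for trnV.1, each from 1 library per genotype. From 0 h to 24 h in slh1, trnK moved by only 0.03 on the log2 scale (95% Clopper-Pearson interval -0.06 to 0.13).

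Antisense tags at chloroplast loci, which no comparison used, numbered between 1212 and 2115 per library, above a floor of 3 tags. They made up between 1.78 and 4.05% of the tags of these loci, whereas antisense tags made up between 11.4 and 14.3% at nuclear loci.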

How the results depend on the processing

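No paired analysis was possible because each genotype and time has 1 library and no replicate number to pair by, beyond the blocks of time point or genotype in the tests themselves. The loci called against 0 h numbered 32, 38 and 48 at 6, 9 and 24 h, and 22 to 35, 31 to 43 and 32 to 48 over all alternatives; leaving out a later pair of libraries gave 28 to 35, 38 to 43 and 47 to 48. None of 103 named values changed direction. All were chosen as called in the main fit of the same counts, which made a reversal unlikely. For the genotype test at 21 °C, leaving out each time gave 0 to 21 calls (21 without 24 h), at 28 °C 0 to 0, for the shift in No-0 0 to 28, in slh1 0 to 12, and for the genotype difference at 21 °C minus 28 °C 0 to 4. Without the filter the shift gave 13 calls in No-0 and 2 in slh1, and DESeq2 gave 3 in No-0. The genotype difference at 24 h minus the other times, with 2 calls, gave 5 with RLE size factors, 7 with nuclear scaling, 4 without the filter, 0 with DESeq2, 6 with limma-voom and 6 with repeat copies summed. Over all genes the same settings called 27, 30, 17, 4, 16 and 28, and the main fit 22. All tested 7832 genes, except 20814 without the filter and 7819 with copies summed. The cause was not tested.

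The median chloroplast share was 17.5% of sense tags, 7.08% without ribosomal RNA, 5.56% also without tRNA, 15.99% with antisense tags, and 7.68% without the 23S loci. Of chloroplast tags, median shares without ribosomal RNA and without second repeat copies were 11.3% and 6.26% for photosystem loci (4.28% with all), 40.0% and 20.3% for ribosomal proteins (14.7%), 0.817% and 0.496% for RNA polymerase (0.350%), and 19.4% and 10.7% for tRNAs (7.61%). That of ribosomal RNA was 45.7% without second copies (61.8%).

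Of the 131 chloroplast loci, 8, 10, 13 and 6 were at least 4-fold apart between genotypes at 0, 6, 9 and 24 h with a pseudocount of 1 TPM. Over all 21063 loci there were 4808, 4780, 3935 and 5368. With 20 TPM there were 0 at each time, against 10, 4, 3 and 44 of all loci. With nuclear tags as the total there were 6, 5 and 1 at 6, 9 and 24 h, against 860, 743 and 1240 of all loci. With at least 20 tags there were 0, 1 and 0 at 0, 6 and 9 h, against 19, 11 and 4 of 2115 loci. Between 24 h and 0 h the chloroplast loci numbered 32 and 29 (No-0 and slh1) with 1 TPM, against 4903 and 8088 of all loci. They numbered 10 and 12 with 20 TPM, against 264 and 522. With at least 20 tags there were 7 and 10, against 264 and 378 of 2115 loci.

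Scaling moved the median log2 change of all genes by over 0.1 for the genotype test at 21 °C (0.18 with total tags), for 24 h against 0 h (-0.12, nuclear), for the shift in No-0 (-0.13, nuclear), for the genotype difference at 21 °C minus 28 °C (0.12, nuclear) and for that at 24 h (0.17 with RLE, -0.10 with total tags, 0.15 nuclear). Loci of few tags are limited by depth: 3 tags are 5.96 to 15 TPM.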
